A study of Mus musculus with 6 samples.

Results

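Small nucleolar RNA (snoRNA) genes and the noncoding genes that carry them were followed in induced germinal center B cells (iGBs) with and without Prmt1. Members were taken from the table of exon counts by their symbols, which begin with Snora, Snord or Snhg or equal Gas5. There were 124 of them among the 39017 genes of the table, made up of 38 box H/ACA snoRNA genes (Snora), 76 box C/D snoRNA genes (Snord) and 10 host genes (the Snhg genes and Gas5). iGBs are mouse B cells that take on features of germinal center B cells when they are grown on 40LB, a fibroblast line that supplies CD40L and BAFF, with IL-4. The Control group was 3 C57BL6/J mice of the genotype Cg1-cre and the Prmt1-null group was 3 C57BL6/J mice of the genotype Cg1-cre Prmt1f/f, with 2 females and 1 male in each. Both groups therefore carried Cg1-cre, in which Cre is expressed from the Cγ1 locus, so that Prmt1f/f is cut in B cells that have begun to transcribe that locus and not in every B cell of the mouse. Spleen B cells of each mouse were cultured for 3.5 days, the feeders were removed with an antibody to H2K, and 1 library was made per mouse by a ribosomal RNA depletion protocol.

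snoRNAs are short RNAs of the nucleolus that guide chemical modification of other RNAs by base pairing. Box C/D snoRNAs bind fibrillarin and its partners and place 2′-O-methyl groups on ribosomal RNA, whereas box H/ACA snoRNAs bind dyskerin and its partners and place pseudouridines, and a few members of both classes take part in cutting the ribosomal RNA precursor. Most mammalian snoRNAs lie in introns of host genes and are released when the intron is spliced out and trimmed, and many hosts, ribosomal protein genes and the Snhg genes among them, are transcribed strongly in growing cells. PRMT1 is an arginine methyltransferase, and fibrillarin and other nucleolar proteins with arginine and glycine rich stretches are known substrates of such enzymes.

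The sequences of the snoRNAs on which the comparison turned are given here 5′ to 3′ from the transcripts of GENCODE release M21 (mouse GRCm38, the build also called mm10). Capitals mark the boxes that were found in them. In box C/D sequences these are TGATGN within the first 25 bases and CTGA within the last 15, and in box H/ACA sequences ACA exactly 3 bases before the 3′ end, all searched on the strand of the snoRNA. The letters TGATGN were found in 65 of 76 box C/D genes (85.5%) and in 0 of 38 box H/ACA genes, CTGA in 70 (92.1%) and 2 (5.26%), and ACA at its place in 0 box C/D genes and 31 box H/ACA genes (81.6%). The annotated lengths separated the classes less fully, running from 64 to 238 nt (median 80.5) for box C/D and from 121 to 205 nt (median 132) for box H/ACA genes. Snord35b and Snord118 were among the 8 box C/D genes with the smallest p, and Snord14c and Snord14d were among the 4 with the most counts and are near-identical copies in Hspa8. The first box of Snord118 was not found in its window.
Snord35b (chr7:45123025-45123111, minus strand): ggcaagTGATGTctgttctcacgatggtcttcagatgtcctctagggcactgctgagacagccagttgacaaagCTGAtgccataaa
Snord118 (chr11:69073427-69073561, plus strand): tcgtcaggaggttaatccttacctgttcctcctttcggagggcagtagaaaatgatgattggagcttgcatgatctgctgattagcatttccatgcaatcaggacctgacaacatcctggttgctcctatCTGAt
Snord14c (chr9:40803583-40803668, plus strand): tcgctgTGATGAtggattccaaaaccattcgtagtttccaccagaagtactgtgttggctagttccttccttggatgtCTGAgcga
Snord14d (chr9:40803995-40804080, plus strand): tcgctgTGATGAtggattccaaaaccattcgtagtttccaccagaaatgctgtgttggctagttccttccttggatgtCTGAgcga
Of the box H/ACA genes, Snora73b and Snora73a had the most counts, and Snora52, Snora75, Snora2b and Snora78 were among the 8 with the smallest p.
Snora73b (chr4:132352322-132352526, minus strand): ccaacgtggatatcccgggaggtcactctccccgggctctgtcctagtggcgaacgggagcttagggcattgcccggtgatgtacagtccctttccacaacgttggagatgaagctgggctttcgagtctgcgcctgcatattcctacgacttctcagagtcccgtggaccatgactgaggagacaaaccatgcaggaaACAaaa
Snora73a (chr4:132352775-132352979, minus strand): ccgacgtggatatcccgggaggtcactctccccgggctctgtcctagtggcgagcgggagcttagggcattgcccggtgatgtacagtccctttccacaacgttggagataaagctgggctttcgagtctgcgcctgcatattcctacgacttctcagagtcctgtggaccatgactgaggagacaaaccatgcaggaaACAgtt
Snora52 (chr7:141448803-141448939, plus strand): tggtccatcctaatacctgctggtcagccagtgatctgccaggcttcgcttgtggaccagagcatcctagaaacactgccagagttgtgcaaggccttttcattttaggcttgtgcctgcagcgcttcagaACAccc
Snora75 (chr1:86351169-86351301, minus strand): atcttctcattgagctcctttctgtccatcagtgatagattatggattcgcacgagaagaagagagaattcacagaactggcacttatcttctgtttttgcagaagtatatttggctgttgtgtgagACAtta
Snora2b (chr15:98526346-98526482, minus strand): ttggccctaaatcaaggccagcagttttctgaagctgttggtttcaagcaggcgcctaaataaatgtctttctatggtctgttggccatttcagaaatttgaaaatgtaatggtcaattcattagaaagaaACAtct
Snora78 (chr17:24719676-24719803, minus strand): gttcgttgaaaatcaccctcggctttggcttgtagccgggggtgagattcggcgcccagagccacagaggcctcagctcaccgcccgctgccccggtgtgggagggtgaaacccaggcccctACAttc
Snora73a and Snora73b were identical at 198 of 205 bases (96.6%), and Snord14c and Snord14d at 84 of 86 (97.7%). Reads of such pairs can be split between the copies, because alignments to at most 2 locations were counted, so that the level of each copy is less certain than that of the pair.

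Total counts ran from 45343250 to 62774232 per library. Levels are given as CPM, the count divided by the library size after scaling by the TMM factors of edgeR, which ran from 0.9855 to 1.013, and 3 counts, the smallest number taken as detected, corresponded to 0.0475 to 0.0657 CPM. Such floors cover counting error only. Prmt1 read 71.5, 70.8 and 87.2 CPM in Control and 31.5, 26.6 and 26.6 CPM in Prmt1-null iGBs (log2 fold change −1.44, SE 0.095, adjusted p = 1.11e-05). The 6 B cell markers summed to 5971 to 6652 CPM over the libraries, 10 markers of feeder fibroblasts to 28.3, 32.7 and 31.0 CPM in Control and 31.0, 35.1 and 39.9 CPM in Prmt1-null iGBs, with Lum at 0 in all of them, T cell markers to 0.341 to 1.93 CPM and myeloid markers to 3.51 to 5.59 CPM. Of the 9 feeder markers tested 8 had a positive log2 fold change and 0 passed the test, and the part of feeder RNA in the values of the members was not tested. Control replicate 1 stood apart from the other libraries in the longest snoRNAs, as described with Snora73b, so values without it are given beside several of the results. In these bulk samples, fewer cells that make an RNA and less of that RNA per cell cannot be told apart.

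A few members made up most of the snoRNA counts. Per kb of annotated length, the scale on which genes were compared with each other, Snora73b (box H/ACA, in Snhg3, known for its part in cutting the ribosomal RNA precursor) was the highest of the members described here, at 403 ± 203 CPM per kb (SD, n = 3) in Control and 294 ± 64.0 in Prmt1-null iGBs. Snora73a, in the same host, followed at 218 ± 123 and 148 ± 30.4 CPM per kb. The leading box C/D genes were Snord14d at 122 ± 28.9 and 104 ± 18.4 and Snord14c at 112 ± 28.3 and 88.9 ± 14.1 CPM per kb, both in Hspa8, which codes for a heat shock cognate protein. The means of Snora73a, Snord14d and Snord14c lay within their SDs of each other in Control. The median mean count was 17.3 for snoRNA genes under 100 nt, 23.7 from 100 to under 150 nt and 355 at 150 nt or longer. Whether the libraries kept RNAs of these lengths alike was not tested, so levels per kb of snoRNAs of unlike length may not be comparable. Snora73b alone took 45.7 to 51.6% of the summed CPM of all box H/ACA genes in a library, whereas Snord14d took 10.6 to 14.6% of the box C/D sum. Snhg1 had the highest mean count of the host genes over the 6 libraries, with 27.6 to 39.1% of the host sum, though Snhg3 was above it in Control replicate 1, and per kb it was at 19.2 ± 1.83 in Control against 59.0 ± 27.5 for Snhg3.

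At the other end, 4 members had no count in any library. These were Snora35, which lies in the serotonin receptor gene Htr2c, Snord123, and Snord116l1 and Snord116l2, which had identical sequences. For these, the floor of 3 counts allows up to 0.0475 to 0.0657 CPM in a library. Of all 124 members, 82 had at least 3 counts in every library, and 91 passed the filter on low counts and were tested (30 box H/ACA, 52 box C/D and 9 host genes). The 33 that did not pass were 8 box H/ACA genes, 24 box C/D genes and Snhg11. The median mean count of the tested members was 39.8 for box H/ACA genes, 27.7 for box C/D genes and 532 for host genes, beside 537 over all genes tested. The median standard error of the log2 fold change was 0.482, 0.586 and 0.173, beside 0.142 over all genes.

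**Figure D1:**
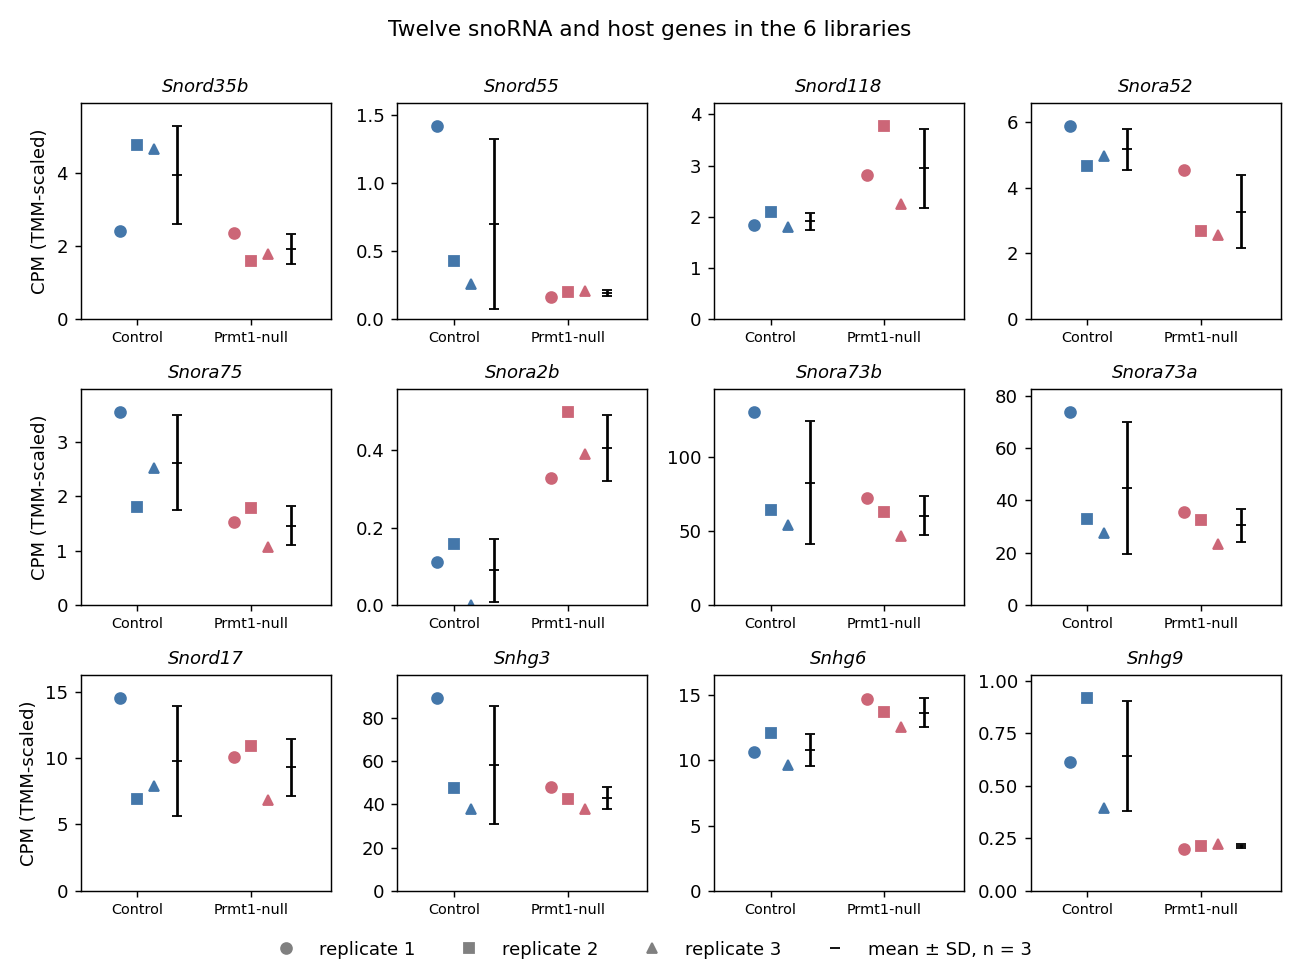
Levels of 12 snoRNA and host genes in CPM (TMM-scaled, y axis, each panel from 0) in each library, with the mean and SD of the 3 libraries per group as bars beside the points. Snord35b, Snora52, Snora75, Snord55 and Snhg9 were lower and Snord118, Snora2b and Snhg6 higher in each Prmt1-null library than in every Control library, whereas Snora73b, Snora73a, Snord17 and Snhg3 were highest in Control replicate 1 with overlapping groups.

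The genotypes were compared to ask whether snoRNAs or their hosts differ in abundance when Prmt1 is deleted. No member passed the test, 0 of 91 at an adjusted p under 0.05 (quasi-likelihood test of edgeR, Benjamini-Hochberg adjusted over 18268 genes), where 218 of all genes tested passed (1.19%). At an unadjusted p under 0.05 there were 8 members (8.79%, 3 with a positive and 5 with a negative log2 fold change), a smaller share than the 13.5% of all genes. DESeq2 called 1 member, where it called 746 genes in all (4.08%), and limma-voom called 0 where it called 251 (1.37%). Without a filter on low counts edgeR called 5 of 120 members, Snord35b, Snora52, Snora73a, Snora73b and Snhg3, where it called 710 of 25707 genes (2.76%). In the filtered fit without Control replicate 1, Snora73a, Snora73b and Snhg3 had log2 fold changes of 0.01, 0.04 and 0.01. Calls made without a filter can therefore rest on 1 library. The Control and Prmt1-null libraries of a gene did not overlap for 13 members (14.3%), 7 with Prmt1-null above and 6 with Prmt1-null below, beside 19.9% of all genes (9.95% above and 9.92% below).

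By class, the box H/ACA genes had a median log2 fold change of −0.24, with 10 positive and 20 negative, the box C/D genes one of −0.10, with 24 positive and 28 negative, and the host genes one of 0.07, with 5 positive and 4 negative. The median over all genes tested was −0.001, with 50.1% below 0. The range was −1.06 to 2.13 for box H/ACA, −1.87 to 1.56 for box C/D and −1.59 to 0.34 for host genes, and the smallest adjusted p was 0.191, 0.0847 and 0.224. The width of the intervals limits what this comparison could show. The 95% confidence interval lay within a log2 fold change of −1 to 1 for 24 of the 91 members only, 6 of them box H/ACA, 10 box C/D and 8 host genes. When Control replicate 1 was left out, the medians were −0.18, 0.08 and 0.01.

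**Figure D2:**
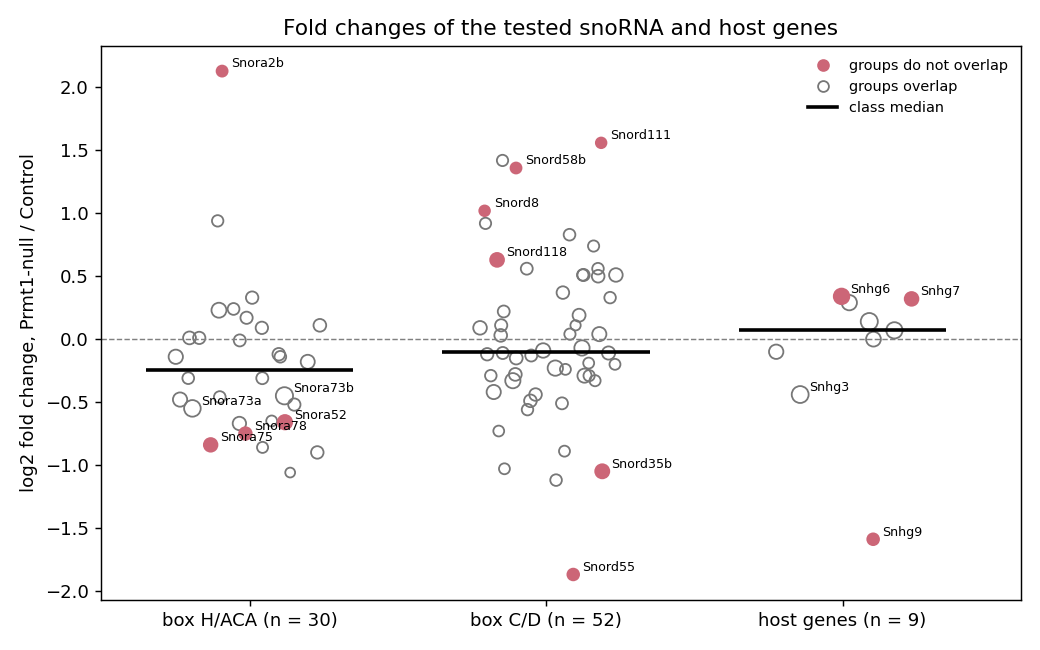
Log2 fold change (Prmt1-null over Control, y axis) of the 30 box H/ACA, 52 box C/D and 9 host genes tested, 1 point per gene, with the median of each class as a bar. Points are filled where the groups do not overlap, and larger points have more counts, and the widest deviations are genes of few counts, Snora2b at 2.13, Snord55 at −1.87 and the host gene Snhg9 at −1.59.

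The box C/D gene with the smallest p was Snord35b, on the minus strand of chromosome 7. It read 2.41, 4.78 and 4.67 CPM in Control and 2.37, 1.60 and 1.79 CPM in Prmt1-null iGBs. Control replicates 2 and 3 were above the other 4 libraries, and the groups did not overlap, although Control replicate 1 and Prmt1-null replicate 1 nearly met. The means were 3.95 ± 1.34 and 1.92 ± 0.405 CPM (SD, n = 3), a log2 fold change of −1.05 (SE 0.271, 95% confidence interval −1.63 to −0.46, adjusted p = 0.0847 by edgeR). It was the 1 member that DESeq2 called (adjusted p = 0.0111), and edgeR called it without a filter on low counts (0.00147) and without Control replicate 1 (log2 fold change −1.30, adjusted p = 0.0190). With each of the libraries left out in turn the log2 fold change ran from −1.30 to −0.89 and the adjusted p from 0.0190 to 0.318.

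Snord35b lies near Prmt1 itself, 136 kb from the Prmt1 gene (chr7:44975989-44986568). The neighboring snoRNA genes of Rpl13a, 140 to 141 kb from Prmt1, were looked at after the value of Snord35b had been seen. Snord33 had a log2 fold change of 0.56 (SE 0.68), Snord34 one of −0.12 (SE 0.483) and Snord32a one of −0.49 (SE 0.391), each with overlapping groups and none past the test. Snord35a shares its number with Snord35b. Their sequences matched at 40.0% of bases when laid side by side without gaps, where an inserted or lost base lowers the value. Snord35a had too few counts to be tested. Snord88a and Snord88c, 726 kb away, were not tested either.

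Snord55 read 1.42, 0.427 and 0.258 CPM in Control and 0.164, 0.199 and 0.205 CPM in Prmt1-null iGBs. The groups did not overlap, but Control replicate 1 was far above the other 5 libraries. The log2 fold change was −1.87 (SE 0.697, adjusted p = 0.237) with all libraries and −0.85 (adjusted p = 0.709) without Control replicate 1, on a mean of 23.0 counts. Snord118, the U8 snoRNA, has a gene of its own with no host on its strand and is known for the maturation of the large subunit ribosomal RNAs rather than for guiding methylation. It read 1.84, 2.09 and 1.79 CPM in Control and 2.81, 3.77 and 2.25 CPM in Prmt1-null iGBs. Every Prmt1-null library was above every Control library. The log2 fold change was 0.63 (SE 0.241, adjusted p = 0.257), and 0.60 without Control replicate 1. With each library left out in turn it ran from 0.41 to 0.79.

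The remaining box C/D genes among the 8 with the smallest p were Snord104, Snord14c, Snord95, Snord49a and Snord58b, with log2 fold changes of 0.51, −0.33, −1.12, 1.42 and 1.36 and adjusted p from 0.446 to 0.480. Of these, the groups of Snord58b did not overlap, and its log2 fold change ran from 0.86 to 2.16 with each library left out. In the same fits that of Snord49a ran from 0.85 to 1.80, that of Snord95 from −1.63 to −0.77 and that of Snord104 from 0.38 to 0.69. Snord104 also lies outside any host on its strand, and its groups overlapped at 1.23, 1.47 and 1.91 CPM in Control and 1.77, 2.34 and 2.44 CPM in Prmt1-null iGBs. The box C/D genes with the most counts differed by less. Snord14d read 12.6, 11.1 and 7.73 CPM in Control and 10.6, 7.45 and 8.74 CPM in Prmt1-null iGBs (log2 fold change −0.23, SE 0.179, adjusted p = 0.628), with overlapping groups. Its copy Snord14c stood at −0.33 (SE 0.181). Without Control replicate 1 these values were −0.08 for Snord14d and −0.15 for Snord14c. Hspa8, the host of both, had a log2 fold change of 0.27 (SE 0.0763, adjusted p = 0.109). Snord15b, in Rps3, had a log2 fold change of −0.09 (SE 0.249) and moved to 0.25 without Control replicate 1. Snord17, the longest box C/D gene at 238 nt, in Snx5, read 14.5, 6.93 and 7.87 CPM in Control and 10.1, 10.9 and 6.87 CPM in Prmt1-null iGBs. Its log2 fold change was −0.07 (SE 0.242), and 0.33 (SE 0.185) without Control replicate 1.

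Among box H/ACA genes the smallest p was that of Snora52, in Rplp2, which codes for a protein of the ribosomal stalk. It read 5.87, 4.67 and 4.95 CPM in Control and 4.55, 2.69 and 2.56 CPM in Prmt1-null iGBs. The groups did not overlap, and Prmt1-null replicate 1 lay just under the lowest Control library. The means were 5.16 ± 0.629 and 3.27 ± 1.11 CPM (SD, n = 3), a log2 fold change of −0.66 (SE 0.223, 95% confidence interval −1.14 to −0.18, adjusted p = 0.191 by edgeR). Without a filter on low counts the adjusted p was 0.0475, and under the other tests and scalings with all libraries it was 0.0816 or more. Rplp2 itself had a log2 fold change of 0.12 (SE 0.106).

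Snora75 lies in Ncl, the gene of nucleolin, an abundant nucleolar protein that binds ribosomal RNA precursors. It read 3.55, 1.80 and 2.52 CPM in Control and 1.52, 1.78 and 1.07 CPM in Prmt1-null iGBs. The groups did not overlap, though Control replicate 2 and Prmt1-null replicate 2 nearly met. The log2 fold change was −0.84 (SE 0.299, adjusted p = 0.213), and −0.56 without Control replicate 1. Ncl had a log2 fold change of the opposite sign, at 236 ± 14.2 CPM in Control and 289 ± 16.1 CPM in Prmt1-null iGBs (0.29, SE 0.0664, adjusted p = 0.0527), with each Prmt1-null library above each Control library. Ncl passed the threshold by DESeq2 (adjusted p = 0.00111), by limma-voom (0.0323), with sex as a covariate (0.0324), with a minimum count of 50 (0.0416) and without a filter (0.00110), but in no fit with 1 library left out (adjusted p from 0.0807 to 0.279). The other snoRNA of Ncl, Snord82, named after its value was seen, had a log2 fold change of 0.33 (SE 0.615) with overlapping groups.

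Snora2b, in Kansl2, a gene of a histone acetyltransferase complex, had the highest log2 fold change of all members and few counts. It read 0.110, 0.158 and 0.00 CPM in Control and 0.329, 0.499 and 0.392 CPM in Prmt1-null iGBs, which are 5, 10 and 0 counts against 18, 30 and 23. The Prmt1-null libraries were all above the Control libraries. The log2 fold change was 2.13 (SE 0.863, 95% confidence interval 0.27 to 3.98, adjusted p = 0.285) and ran from 1.57 to 2.88 with each library left out, and Kansl2 itself was at 15.8 ± 0.863 CPM in Control and 18.5 ± 0.666 CPM in Prmt1-null iGBs (log2 fold change 0.23, SE 0.102, adjusted p = 0.338). Snora68 had a log2 fold change of −0.90 (SE 0.506), and −0.39 without Control replicate 1. Snora21, in Rpl23 and the third in counts among box H/ACA genes, was one of the better measured snoRNAs. It read 7.05, 5.81 and 5.52 CPM in Control and 7.38, 7.02 and 7.09 CPM in Prmt1-null iGBs. This gave a log2 fold change of 0.23 (SE 0.145, 95% confidence interval −0.09 to 0.54, adjusted p = 0.538). Its groups overlapped through Control replicate 1, and without that library the log2 fold change was 0.34 (SE 0.146, adjusted p = 0.358).

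The other snoRNAs with a mean of over 100 counts, named after their values were seen, had log2 fold changes between −0.48 and 0.09 with all libraries. Eif4a2, which codes for a translation initiation factor, carries a member of each class. Snord2 read 2.3, 3.31 and 3.97 CPM in Control and 4.09, 3.42 and 2.35 CPM in Prmt1-null iGBs (log2 fold change 0.04, SE 0.25, and −0.14 without Control replicate 1), and Snora81 read 2.59, 2.69 and 3.93 CPM and 2.34, 2.68 and 3.10 CPM (−0.18, SE 0.226). In both the genotypes overlapped. Snora28, in Eif5, had a log2 fold change of −0.14 (SE 0.203), Snord69, in Gnl3, one of 0.09 (SE 0.257), Snord21, in Rpl5, one of −0.29 (SE 0.204) and Snord15a, which lies beside Snord15b in Rps3, one of −0.42 (SE 0.285), which was −0.04 (SE 0.257) without Control replicate 1, all with overlapping groups. Snora74a, in Snhg4, had a log2 fold change of −0.48 (SE 0.447) with all libraries and of 0.47 (SE 0.31, adjusted p = 0.589) without Control replicate 1. The box C/D genes whose groups did not overlap also included Snord111, in Sf3b3, and Snord8, in Chd8, with log2 fold changes of 1.56 (SE 0.942) and 1.02 (SE 0.738) on means of 10.7 and 11 counts. With each library left out in turn, that of Snord111 ran from 1.04 to 3.61 and that of Snord8 from 0.79 to 1.61. Without Control replicate 1, the log2 fold changes of other little-counted snoRNAs also moved, that of Snord67 from −0.24 to 0.92, that of Snord53 from −0.29 to 0.57 and that of Snord1c from −0.19 to 0.39, as did those of Snora23 from −0.67 to −0.08 and Snord73a from −1.03 to −0.47.

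The fold changes of the most abundant box H/ACA genes rested on a single library. Snora73b read 130 CPM in Control replicate 1 and 63.7 and 53.9 CPM in the other Control libraries, and 72.2, 62.4 and 46.3 CPM in Prmt1-null iGBs. Snora73a read 73.7, 32.8 and 27.6 CPM in Control and 35.4, 32.3 and 23.4 CPM in Prmt1-null iGBs. Snhg3, their host, read 89.0, 47.4 and 38.0 CPM and 48.1, 42.5 and 37.9 CPM. In all 3 genes Control replicate 1 was the highest library by a wide margin and the other 5 libraries overlapped. The log2 fold changes of −0.45 (SE 0.247) for Snora73b, −0.55 (SE 0.273) for Snora73a and −0.44 (SE 0.22) for Snhg3, with adjusted p of 0.458, 0.404 and 0.414, became 0.04, 0.01 and 0.01 when Control replicate 1 was left out. Without a filter on low counts, edgeR called all 3 with all libraries in the fit (adjusted p = 1.75e-07, 6.67e-07 and 2.61e-05). The count of Snora73b divided by that of Snhg3 ran from 1.22 to 1.5 over the 6 libraries and that of Snora73a from 0.617 to 0.828, a narrow range beside that of the levels themselves. Snora73a lies partly in an exon of Snhg3, and both snoRNAs also lie within Rcc1 on the same strand. Reads may therefore have counted for more than 1 of these genes, and whether the ratios rest on shared reads was not tested.

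The same library was highest for 28 of the 82 tested snoRNA genes, where each other library was highest for 8 to 14. Snoras and Snords were then grouped by length, a grouping chosen after these values had been seen. The 6 genes of 150 nt or longer, which were Snora73b, Snora73a, Snord17, Snora74a, Snora81 and Snora23, summed to 233 CPM in Control replicate 1 and to 82.1 to 125 CPM in the others, 1.86 times the highest other library. Most of the 233 CPM came from Snora73b at 130 CPM and Snora73a at 73.7 CPM, so this sum largely repeats their values. The 43 genes from 100 to under 150 nt summed to 50.6 CPM there and to 35.9 to 43.2 CPM in the others, and the 65 genes under 100 nt to 55.3 CPM there and to 47.4 to 58.4 CPM in the others. Of the 6 longest, 5 were highest in Control replicate 1, the exception being Snora81. The same held for 12 of the 31 tested genes from 100 to under 150 nt and 11 of the 45 under 100 nt. Snora74a, in Snhg4, read 8.39 CPM there and 1.75 to 3.82 CPM in the others. Over single genes the relation of length and the excess of Control replicate 1 was weak (Pearson's r = 0.18, Spearman's rho = 0.20 across 72 snoRNA genes with at least 3 counts, which share the libraries). The excess was not shared by all long guide RNAs. Of the abundant scaRNA genes, the guides of Cajal bodies, Scarna10 (325 nt) was highest in Control replicate 1 at 191 CPM, whereas Scarna2 (414 nt) at 35.8 CPM and Scarna13 (275 nt) at 21.3 CPM were lowest there. All 9 scaRNA genes together summed to 252, 254 and 242 CPM in Control and 243, 239 and 208 CPM in Prmt1-null iGBs. Control replicate 1 was the male of its group and had the smallest total count. The other male library, Prmt1-null replicate 3, had the lowest Snora73b value of all, and with sex as a covariate the log2 fold change of Snora73b was −0.36 (adjusted p = 0.544). With 1 male per group, sex cannot be told apart from the single mouse, and the cause of the excess was not tested.

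**Figure D3:**
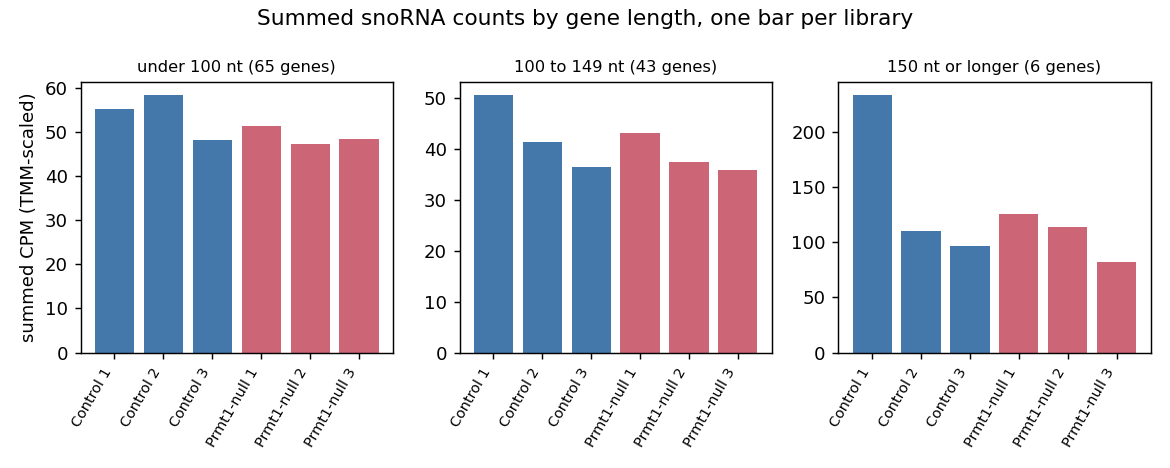
Summed CPM (TMM-scaled, y axis from 0) of the snoRNA genes under 100 nt (65 genes), from 100 to under 150 nt (43 genes) and of 150 nt or longer (6 genes), with 1 bar per library. Control replicate 1 reaches 233 CPM in the longest group, against 125 CPM for the next library, and is not the highest library in the shortest group. Snora73b and Snora73a make up 130 and 73.7 CPM of the 233 CPM.

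Summed over each class the genotypes overlapped. The box H/ACA genes summed to 253, 134 and 116 CPM in Control and 145, 128 and 101 CPM in Prmt1-null iGBs (167 ± 74.4 and 125 ± 22, SD, n = 3). The log2 ratio of these means was −0.42, and 0.00 without Control replicate 1. The box C/D genes summed to 86.4, 76.4 and 65.2 CPM and 74.7, 70.1 and 65.1 CPM (76.0 ± 10.6 and 69.9 ± 4.76, log2 ratio −0.12, and −0.02 without Control replicate 1). The host genes summed to 198, 172 and 147 CPM and 171, 176 and 159 CPM (172 ± 25.2 and 169 ± 9.10, log2 ratio −0.03, and 0.08 without Control replicate 1).

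**Figure D4:**
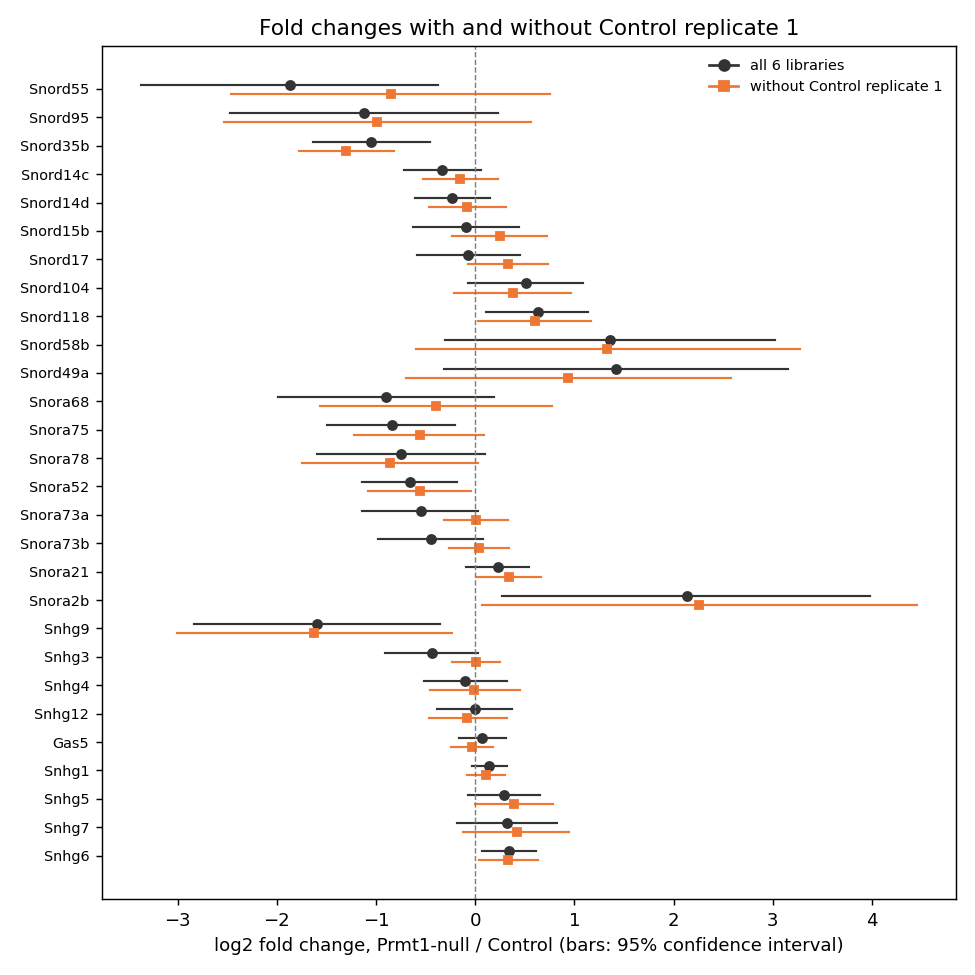
Log2 fold changes (Prmt1-null over Control, x axis, bars 95% confidence intervals) of 28 members with all 6 libraries (circles) and without Control replicate 1 (squares). Snora73b, Snora73a and Snhg3 move from −0.45, −0.55 and −0.44 to 0.04, 0.01 and 0.01, Snord55 from −1.87 to −0.85, and Snord35b from −1.05 to −1.30.

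By the median of the class, host genes were measured more precisely than snoRNA genes. Their spliced RNAs are mostly short-lived and many are degraded by nonsense-mediated decay, since they hold no long reading frame. Snhg6 read 10.6, 12.1 and 9.62 CPM in Control and 14.7, 13.7 and 12.5 CPM in Prmt1-null iGBs. Every Prmt1-null library was above every Control library. The log2 fold change was 0.34 (SE 0.124, 95% confidence interval 0.07 to 0.61, adjusted p = 0.230), and it stayed between 0.26 and 0.43 with each library left out. Snord87, in an intron of Snhg6, was at −0.56 (SE 0.66) with overlapping groups. Snhg7 also did not overlap, at 2.17, 1.55 and 2.07 CPM against 2.37, 2.43 and 2.40 CPM (log2 fold change 0.32, SE 0.234, adjusted p = 0.605). Its log2 fold change ran from 0.18 to 0.42 with each library left out. The identifier of the Snhg7 row belongs to a snoRNA gene named Snora43 in GENCODE release M21, so this row may not hold the Snhg7 transcript and no length was used for it.

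Snhg1, Snhg5 and Gas5, which carry several snoRNAs each, had log2 fold changes of 0.14 (SE 0.0821), 0.29 (SE 0.168) and 0.07 (SE 0.11) with overlapping groups. With each library left out in turn that of Snhg1 ran from 0.08 to 0.22 and that of Snhg5 from 0.08 to 0.41. Gas5, known as a transcript of growth-arrested cells, read 21.2, 27.4 and 26.7 CPM in Control and 28.3, 25.1 and 25.9 CPM in Prmt1-null iGBs, and its 95% confidence interval of −0.16 to 0.31 lay within the range of −1 to 1. Snhg12 (0.00, 95% confidence interval −0.38 to 0.37) and Snhg4 (−0.10, −0.52 to 0.32) also had intervals within it. Snhg11 had a mean of 4.83 counts and was not tested.

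Snhg9 was the host gene with the smallest p and few counts. It read 0.613, 0.918 and 0.397 CPM in Control and 0.201, 0.216 and 0.222 CPM in Prmt1-null iGBs, with every Prmt1-null library below every Control library. The log2 fold change was −1.59 (SE 0.577, 95% confidence interval −2.83 to −0.35, adjusted p = 0.224). Snora78, which it carries, read 0.876, 0.997 and 1.31 CPM in Control and 0.548, 0.598 and 0.750 CPM in Prmt1-null iGBs. The groups of Snora78 did not overlap either, at a log2 fold change of −0.75 (SE 0.394, adjusted p = 0.442). Both lie on the strand opposite to Rps2, a strongly transcribed ribosomal protein gene, and the strand setting of the counting is not given in the sources used here, so reads of Rps2 and of these genes may not have been told apart.

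A host gene was found for most snoRNAs in the annotation on the same strand. Of the 114 snoRNA genes, 53 lay in introns of a host, 47 within exons of some annotated host transcript, 8 partly in an exon and 3 within the RefSeq span of a host, and Snord13, Snord118 and Snord104 had none. By host, 32 snoRNA genes lay in 24 ribosomal protein genes and 13 in 8 Snhg genes or Gas5 that are members here. Snora24, Snord116l1, Snord116l2 and Snord123 lie in Snhg genes of the annotation with no such symbol in the table and are not among the 13. Snora24 was tested (log2 fold change 0.01, SE 0.353). The 26 tested snoRNAs of ribosomal protein genes had a median log2 fold change of −0.11 (12 positive, 14 negative), and the 10 tested among those 13 one of −0.47 (2 positive, 8 negative). The latter hold Snora73a, Snora73b and Snora74a, which were highest in Control replicate 1, and without that library the median of these 10 was −0.08 (5 positive, 5 negative).

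For 78 tested snoRNAs with a tested host, in 59 hosts, the log2 fold changes of snoRNA and host had the same sign in 40 pairs, 15 of 29 for box H/ACA and 25 of 49 for box C/D. The 78 include Snora43 with Snhg7 (−0.52 and 0.32), whose row may not hold the Snhg7 transcript. The median size of the log2 fold change was 0.35 for the snoRNA and 0.09 for the host. Across these pairs, which share libraries and in part hosts, Pearson's r was 0.17 and Spearman's rho 0.15, given as a description. Only 1 of the hosts passed the test, Rpl27a, which codes for a large subunit protein. It read 37.5, 40.6 and 43.5 CPM in Control and 53.8, 50.5 and 52.9 CPM in Prmt1-null iGBs (log2 fold change 0.37, SE 0.075, adjusted p = 0.0330). With any 1 library other than Control replicate 3 left out it did not pass (adjusted p up to 0.153), nor with the replicate number as a block (0.0541). Its snoRNA, Snora3, named for its host, had a log2 fold change of 0.33 (SE 0.438, adjusted p = 0.802). Reads of an unspliced host or of a retained intron and of the mature snoRNA count alike for the snoRNA gene, and how a read on both a snoRNA and a host exon was counted is not given in the sources used here.

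**Figure D5:**
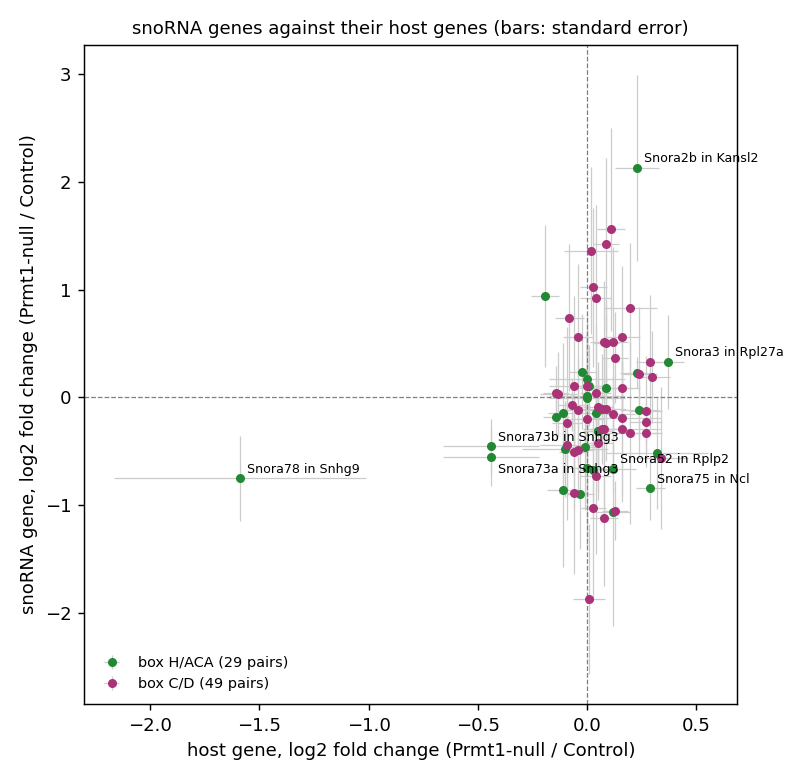
Log2 fold change (Prmt1-null over Control) of the snoRNA gene (y axis) against that of its host gene (x axis) for 29 box H/ACA and 49 box C/D pairs, with standard errors as bars. The hosts other than Snhg9 at −1.59 lie between −0.44 and 0.37, whereas the snoRNAs spread from −1.87 to 2.13.

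The genes of the snoRNA pathway were compared in the same fit. Of the 4 proteins of the box C/D particle 0 passed the test, with log2 fold changes of 0.19 for Fbl (fibrillarin, the methyltransferase), 0.12 for Nop56, 0.04 for Nop58 and 0.11 for Nhp2l1. Of the 4 proteins of the box H/ACA particle 0 passed, at 0.16 for Dkc1 (dyskerin, the pseudouridine synthase), 0.25 for Gar1, −0.06 for Nhp2 and −0.03 for Nop10. An unadjusted p under 0.05 by edgeR was found for 2 of these 4, Dkc1 and Gar1, and for 0 of the 4 box C/D proteins, beside 13.5% of all genes. Dkc1 read 54.2, 55.7 and 55.6 CPM in Control and 62.1, 62.6 and 60.1 CPM in Prmt1-null iGBs (SE 0.0614, adjusted p = 0.258), and its groups did not overlap. None of 15 assembly factors, 8 genes of 3′ trimming and decay, 12 of nonsense-mediated decay and the debranching enzyme gene Dbr1 (−0.11) passed by edgeR, where 2, 0, 1 and 0 of them had an unadjusted p under 0.05. Of 9 scaRNA genes, 7 were tested, 1 with a positive and 6 with a negative log2 fold change (median −0.23), and 0 passed. Of the 89 ribosomal protein genes tested, many of them hosts, 58 had a positive and 31 a negative log2 fold change (median 0.05), and 2 passed, both higher in Prmt1-null iGBs, where 0.591% of all genes passed in that direction. Besides Rpl27a this was Rpl15, which read 24.8, 22.3 and 22.3 CPM in Control and 33.9, 42.5 and 37.0 CPM in Prmt1-null iGBs (log2 fold change 0.71, SE 0.0996, adjusted p = 0.00491).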

How the data were processed

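Reads were trimmed (Trimmomatic 0.32) and aligned to mm10 (STAR 2.3.0e) by the authors, who counted primary alignments to at most 2 locations on Ensembl exons (featureCounts 1.4.4). They deposited unscaled, unfiltered counts. The labels gave groups and replicate numbers. The methods give a lower IL-4 concentration than the 5 ng/ml of the labels.

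The genotypes were compared with edgeR 4.0.16 (R 4.3.3) after the 398 genes on chromosome Y and genes of low counts (filterByExpr, minimum count 10) were left out, by TMM scaling and the quasi-likelihood test with Benjamini-Hochberg adjustment over 18268 genes. A gene was called at an adjusted p under 0.05, and p-values measure the spread between 3 mice per group. Fits were tested on simulated data. Members and lists were chosen with earlier results of these data known. Named were the 8 members of each class with the smallest p, the 4 with the most counts, every tested host gene, the core proteins of the snoRNA particles, called genes of the other lists and the protein-coding hosts of named snoRNAs, some of which are not reported here. Names outside this rule, the length groups and the letters searched for box C (a stricter form was tried first) were chosen after values were seen.

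Genes were matched to GENCODE release M21 by identifier (37693) or symbol (803), and 521 were not. Alternatives were DESeq2 1.42.0, limma-voom (limma 3.58.1), other scalings and filters, chromosome Y kept, sex as a covariate, the replicate number as a block, and each library left out. Same-numbered libraries came from different mice, and their deviations correlated at −0.0747, 0.0445 and −0.0775, so numbers were not taken to pair them.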

Additional observations from a re-analysis of the deposited data

How the results depend on the processing

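With all 6 libraries, 237 log2 fold changes of the named members under other settings kept their direction and side of the threshold, 6 passed it and 2 turned sign, Snhg12 to 0.00 without a filter on low counts and Snord17 to 0.02 by limma-voom. The calls that appeared were 3 box H/ACA genes, 1 box C/D gene and 1 host gene without a filter, and 1 box C/D gene by DESeq2. The median log2 fold change was −0.45 for box H/ACA genes at a minimum count of 50, which left fewer genes, and −0.01 for box C/D genes by limma-voom. Over all genes, 218 were called, 746 by DESeq2, 710 without a filter, 152 with the replicate number as a block, 0 of them members, and 31 to 350 with 1 library left out. Leaving out each library in turn gave box H/ACA medians of −0.43 to −0.18, box C/D medians of −0.20 to 0.08 and 0 to 1 box C/D calls. It turned the sign of Gas5 (−0.03 to 0.14), Snhg3 (−0.67 to 0.01), Snhg4 (−0.26 to 0.03), Snhg12 (−0.11 to 0.15), Snora73a (−0.80 to 0.01), Snora73b (−0.68 to 0.04), Snord15b (−0.31 to 0.25), Snord17 (−0.27 to 0.33), Nhp2 (−0.15 to 0.00), Nop10 (−0.10 to 0.01), Nop58 (−0.02 to 0.09), Rpl17 (−0.05 to 0.07) and Rps3 (−0.01 to 0.11). Of the members named outside the rule, it turned Snora74a (−0.85 to 0.47), Snora81 (−0.29 to 0.04), Snord1c (−0.87 to 0.39), Snord2 (−0.14 to 0.23), Snord34 (−0.47 to 0.24), Snord53 (−1.88 to 0.57), Snord67 (−0.78 to 0.92), Snord69 (−0.04 to 0.25) and Snord82 (−0.12 to 0.69). It moved Snord73a (−2.57 to −0.47) and Snord87 (−1.18 to −0.21) without a turn. The causes were not tested. Most snoRNAs had low counts, and reads of near-identical copies can be split between them.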
